A study of Mus musculus with 18 samples.

Results

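The 10 genes described here encode RNA-binding proteins that regulate alternative splicing in striated muscle: Rbm20, Rbm24, Rbfox2, Mbnl1, Mbnl2, Celf1, Celf2, Ptbp1, Ptbp2 and Qk. They were chosen by symbol, as known splicing regulators of muscle, with earlier results of these data known. All 10 were found among the 23337 gene symbols of the count table and among the 13116 genes that passed the filter on low counts. The table holds polyA RNA-seq read counts from mouse embryonic stem cells of the TBX5-FTA line, with the strain given as A2Lox.cre and the treatment as untreated, that were differentiated toward cardiomyocytes in culture. Libraries were made at 6 harvests, named by day: D5, D6 and D7 are labelled as cardiac progenitor cells and D8, D10 and D15 as immature cardiomyocytes. There were 18 libraries, 3 for each day, and each of them carries the same line, strain and lack of treatment, so day and labelled stage are the only things that differ by label. The series title names Hedgehog signalling and the timing of differentiation as its subject, and the comparisons here follow the splicing regulators through that time course.

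RNA-binding splicing regulators bind short motifs in introns and exons of precursor RNA and promote or block the use of the exon beside them, often with a result that depends on whether they bind before or after it. In heart and skeletal muscle, RBM20, RBM24, MBNL, RBFOX and QKI proteins are known for promoting the exon choices of mature muscle, in titin, in ion channels and in Z disc proteins, while CELF and PTBP proteins are known for opposing many of them. MBNL and CELF proteins act as antagonists on shared exons, and a shift from CELF toward MBNL activity is a textbook feature of heart maturation after birth. Counts per gene measure the level of the regulators' transcripts, not protein, and not the splicing of any target.

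The depth of the libraries ran from 5257601 to 7122093 counts, and each of the 10 genes had counts in all 18 libraries. The labels do not say that the 3 libraries of a harvest are from different cultures, so the spread behind each p-value may not be that between separate cultures. The libraries of a day did not agree in their cardiomyocyte markers. The summed level of 10 markers (Myh6, Myl7, Tnnt2 and others) rose from 368 to 440.6 CPM (counts scaled to the depth of each library) at D5 to 4273 to 7206 CPM at D15, but within D8 it ran from 695 to 1921 CPM, a ratio of 2.76. On 6 of 6 days these sums fell in the order of the running number in the column names, and whether libraries of different days are linked is not given in the labels and was not tested. Of 8 skeletal muscle markers, Myod1 had no count in any library, but Myh8, a perinatal myosin, reached 95.9 ± 29.3 CPM at D15 (SD, n = 3) from no count at D5, and the list summed to 156.9 to 172.6 CPM at D5, mostly Acta1, and 92.66 to 143.1 CPM at D15, mostly Myh8. Markers of fibroblasts and matrix also rose, from 495.9 to 529.8 CPM at D5 to 40460 to 49540 CPM at D15, and on 6 of 6 days the library lowest in cardiomyocyte markers was the highest in these. In bulk RNA, fewer cells of a type and less RNA per cell cannot be told apart.

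Across the 6 days, 9 of the 10 genes changed (edgeR quasi-likelihood F test, Benjamini-Hochberg adjusted over all 13116 genes), while 88.9% of all genes did. From D5 to D15, Mbnl1, Mbnl2, Celf2 and Rbfox2 rose and Rbm20, Celf1, Ptbp1, Ptbp2 and Qk fell, with Rbm24 alone not called. These 4 higher and 5 lower genes of 10 stand beside 40.3% of all genes called higher and 37.7% called lower, so 9 of 10 called is close to the share for any gene (78.0%). The median log2 fold change was -0.002 for the 10 genes and 0.032 for all genes. Between the labelled stages, D8, D10 and D15 against D5, D6 and D7, the same counts were 4 higher and 5 lower, beside 39.3% and 37.8% of all genes (77.1% in all), and each gene kept the direction it had from D5 to D15. This stage comparison and the D15 to D5 comparison share the D5 and D15 libraries.

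**Figure D1:**
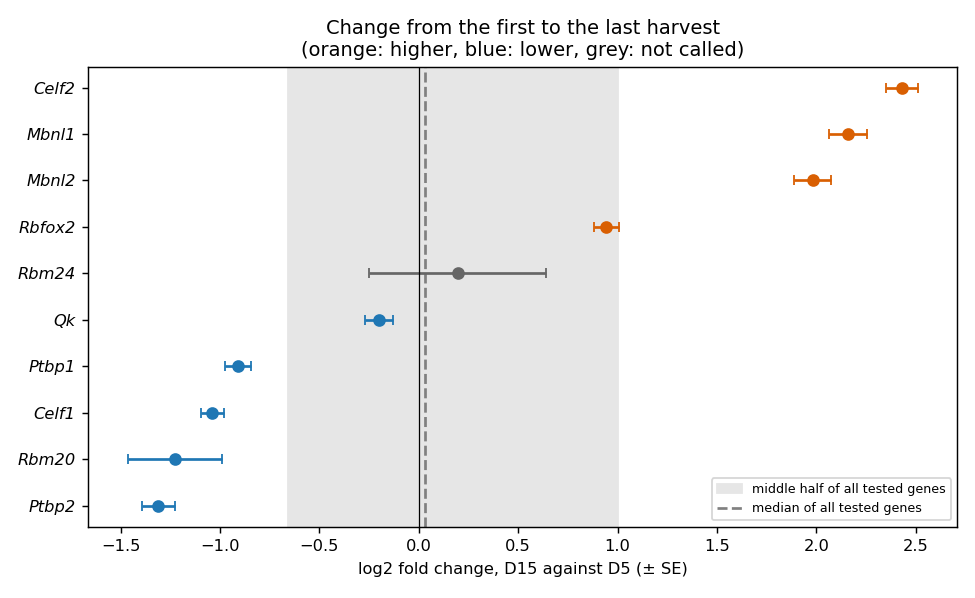
Log2 fold change of each gene at D15 against D5 on the horizontal axis, with bars of ± 1 SE from edgeR; orange points were called higher, blue points lower, and the grey point was not called. The grey band is the interquartile range of all 13116 genes tested (-0.657 to 1.00) and the dashed line their median: Celf2, Mbnl1 and Mbnl2 lie above the band, Ptbp1, Celf1, Rbm20 and Ptbp2 below it, and Rbfox2, Rbm24 and Qk within it.

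RBM20, a heart and muscle regulator best known for repressing titin exons and mutated in dilated cardiomyopathy, is encoded by Rbm20 (mm10 chr19:53677306-53867080, plus strand). Its transcript was highest at the earliest harvest, at 192.4, 166.2 and 156.9 CPM in the D5 libraries. At D6 it was 91.6, 94.04 and 74.5 CPM, and at D15 it was 99.55, 68.94 and 52.33 CPM. Each D5 library was above every later one. The fall from D5 to D6 was 0.99 on the log2 scale (SE 0.232, edgeR adjusted p = 0.00525), where 16.4% of all genes were called lower. No later step was called, and from D5 to D15 Rbm20 fell by 1.23 (SE 0.237, adjusted p = 0.000355). The lowest day was D8, at 54.0 CPM on average, and the D10 and D15 libraries (44.29 to 81.06 and 52.33 to 99.55 CPM) overlapped each other. Rbm20 thus was lower at D15 than at D5 while the summed cardiomyocyte markers, and titin itself among its targets (Ttn, 5.85 ± 1.04 CPM at D5 and 302.6 ± 83.8 at D15, SD, n = 3), were higher.

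RBM24, which promotes inclusion of muscle exons and is needed for sarcomere assembly, was not called in any comparison. Rbm24 (chr13:46418434-46431095, plus strand) measured 85.56, 73.94 and 56.31 CPM at D5, 61.43, 44.14 and 24.96 CPM at D8, and 113.7, 78.34 and 55.69 CPM at D15. The D5 and D15 libraries overlapped, with a log2 fold change of 0.20 (SE 0.445, edgeR adjusted p = 0.699), and the adjusted p across days was 0.426. The fit has no term for differences between libraries that recur on each day, so this spread counts as error, and a p above the threshold does not show that Rbm24 was level. The spread within a day was the widest of the 10 genes on each day, since the highest library of a day stood 1.52-fold (D5) to 3.08-fold (D10) above the lowest, against 1.02-fold to 1.90-fold for the other 9 genes.

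That spread within a day had the order of the cardiomyocyte markers, which on 6 of 6 days was also the order of the running number. An order by markers and an order by running number thus cannot be told apart here. On 6 of 6 days, the 3 libraries had the same order in Rbm24 as in the summed 10 cardiomyocyte markers, an order shared on all days by 25 of the 13106 genes outside the marker list (0.191%). The labels do not say whether libraries of different days are linked, so the 6 days may not be separate observations. Atp2a2, Mybpc3, Myl4, Mef2c and Ldb3, which encode heart muscle proteins or their activators, are among those 25 and were named after their values were seen. Rbm20 had the same order on 4 of 6 days and had its lowest library where the markers were lowest on 6 of 6 days. Of the other 8 genes, Qk had the same order on 4 days and the rest on 0 to 2. Mbnl2 instead had its highest library where the cardiomyocyte markers were lowest on 5 of 6 days, and Rbfox2 and Ptbp1 on 3, where the fibroblast and matrix list did so on 6. The exception for Mbnl2 was D15, its highest day, when its libraries (309.6, 272.1 and 250 CPM) had the same order as the markers. For these counts of Rbm20, Qk, Mbnl2, Rbfox2 and Ptbp1, no share of all genes was computed. Across days the relation was another one. At similar marker sums of 367.3 to 440.6 CPM, Rbm24 was 85.56, 73.94 and 56.31 CPM in the D5 libraries. It was 33.29 CPM in the lowest D6 library. These sums were not made up alike. Tnnc1 averaged 158.2 CPM at D5 and 61.98 at D6, and Tnnt2 119.3 and 264.5, so similar sums need not mean similar cardiomyocyte content. Whether the differing marker levels account for the wide spread of Rbm24 and Rbm20 was not tested.

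**Figure D2:**
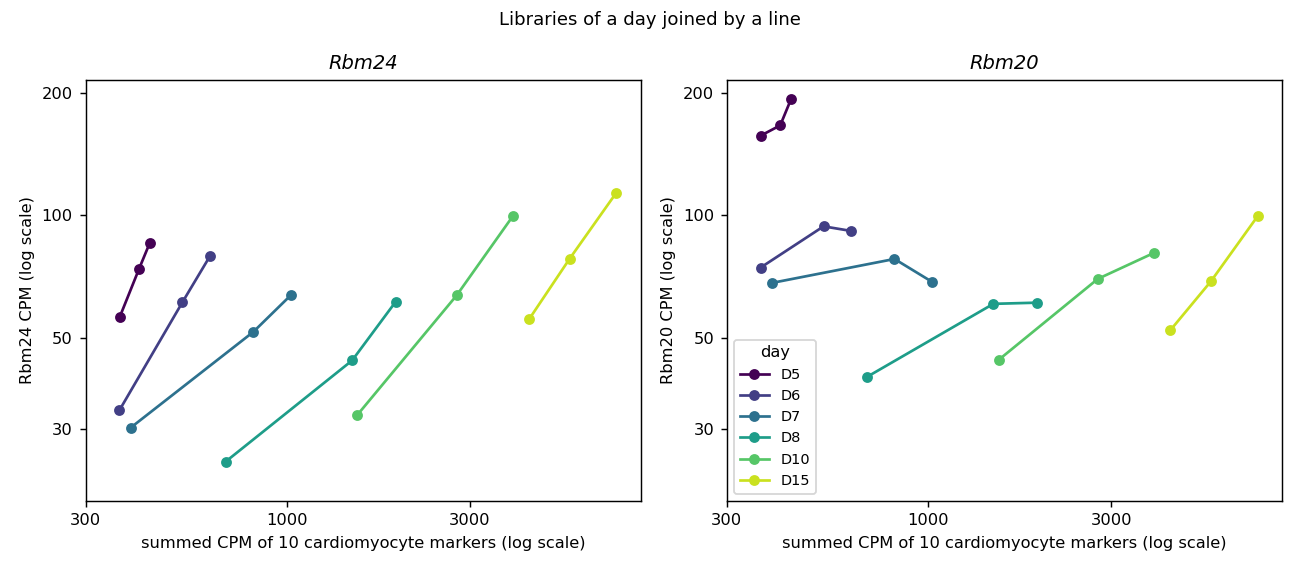
Rbm24 (left) and Rbm20 (right) in CPM on log axes, against the summed CPM of 10 cardiomyocyte markers, one point a library, with the 3 libraries of a day joined by a line and coloured by day. Within each day the Rbm24 line climbs with the markers, while the lines of successive days lie side by side; for Rbm20 the D5 libraries (156.9 to 192.4 CPM) stand above all others.

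The muscleblind genes rose together. MBNL1 and MBNL2 promote adult exon choices, and their loss of function by capture on repeat RNA underlies myotonic dystrophy. Mbnl1 (chr3:60472830-60629750, plus strand) went from 23.57, 22.92 and 20.18 CPM at D5 to 42.84, 44.97 and 41.66 at D8 and 105.9, 95.18 and 96.33 at D15. The D5, D8 and D15 libraries did not overlap. The rise from D5 to D15 was 2.16 on the log2 scale (SE 0.096, 4.46-fold, edgeR adjusted p = 3.51e-18), and 4 of the 5 steps between harvests were called higher, the D6 to D7 step not. Mbnl2 (chr14:120275669-120431697, plus strand) was level at first, with 70.72, 65.14 and 74.58 CPM at D5 and 68.05, 63.87 and 75.29 at D6, and then climbed to 92.47, 111.2 and 119.2 CPM at D7 and 309.6, 272.1 and 250.0 at D15. All D7 libraries were above all D5 and D6 libraries, and all D15 libraries above every other. From D5 to D15 Mbnl2 rose by 1.98 (SE 0.094, adjusted p = 1.92e-16). Its first called step was D6 to D7, at 0.64 (adjusted p = 1.31e-05), where 15.1% of all genes were called higher. The log2 ratio of Mbnl2 to Mbnl1 within a library moved little, from 1.66 ± 0.20 at D5 to 1.48 ± 0.09 at D15 (SD, n = 3, exact two-sided permutation p = 0.3, smallest possible 0.1).

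The CELF genes moved in opposite directions. CELF1 and CELF2 bind GU-rich sequence, and CELF1 promotes embryonic exon choices in heart as well as the decay of bound transcripts. Celf1 (chr2:90940382-91019497, plus strand) measured 464.9, 443.9 and 451.4 CPM at D5, 378.9, 375.9 and 339.6 at D8, 272.5, 262.3 and 262.6 at D10 and 219.0, 223.1 and 220.0 at D15. These 4 days did not overlap. Celf1 fell by 1.04 from D5 to D15 (SE 0.057, edgeR adjusted p = 4.91e-16), and its 2 called steps were the late ones, D8 to D10 (a log2 change of -0.46, adjusted p = 2.66e-07) and D10 to D15 (-0.27, adjusted p = 0.000276). Celf2 (chr2:6539694-7509563, minus strand), the paralog more restricted to heart, brain and muscle, rose from 49.77, 48.22 and 43.09 CPM at D5 to 93.39, 90.61 and 86.92 at D8 and 247.8, 251.3 and 260.7 at D15. Its log2 rise of 2.43 (SE 0.081, 5.39-fold, adjusted p = 3.05e-21) was the steepest of the 10 genes, and the D10 to D15 step alone gave 0.98 (adjusted p = 5.21e-12). Of its exon bases, 7.58% are also covered by a gene on the opposite strand (Gm26565).

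Ratios of counts within a library, in which depth cancels, put these moves side by side. The log2 ratio of Celf2 to Celf1 went from -3.27 ± 0.10 at D5 to 0.20 ± 0.04 at D15 (SD, n = 3), a gain of 3.47. The ratio of Mbnl1 to Celf1 went from -4.35 ± 0.11 to -1.16 ± 0.10, a gain of 3.20. In both, the 3 D15 libraries were above the 3 D5 libraries, which gives an exact two-sided permutation p of 0.1, the smallest that 3 against 3 libraries allow. Both ratios rose at every harvest in the means, and the largest step was the last, from D10 to D15. Celf2 gained more on Celf1 than Mbnl1 did, so in the means Mbnl1 did not gain on Celf2 from D5 to D15. Ratios of counts between genes carry their differing lengths, so only their change over days is read here. The fibroblast and matrix markers rose over the same days, and whether Mbnl1, Mbnl2 and Celf2 rose in cardiomyocytes, in other cells or in both cannot be told apart in these libraries.

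**Figure D3:**
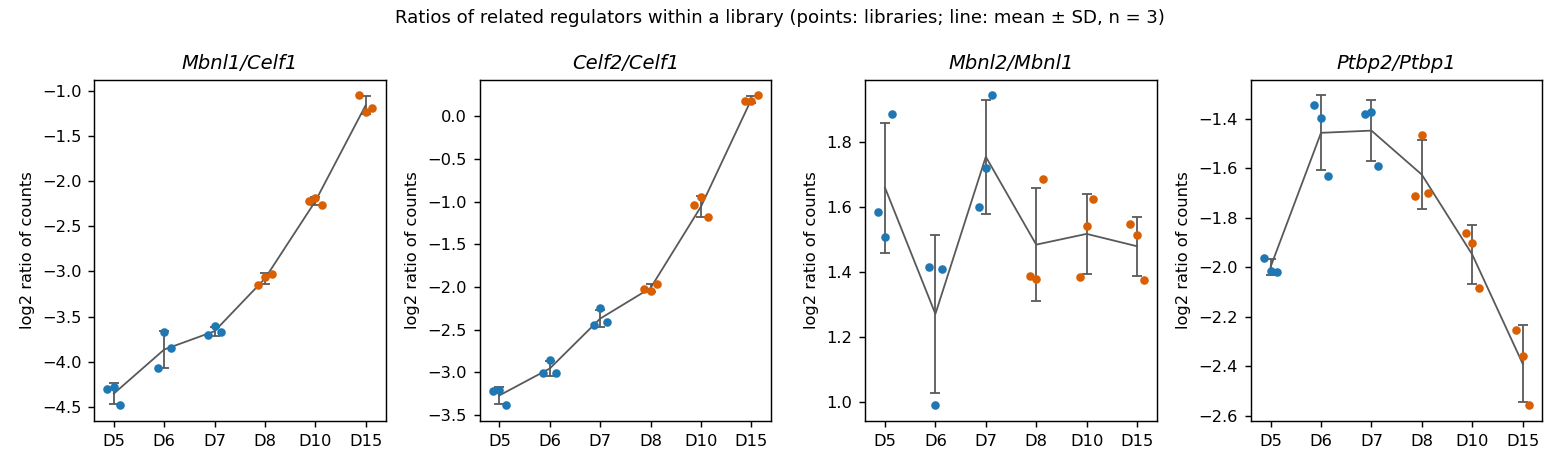
Log2 ratios of counts of 2 genes within a library, by day, with one point per library (blue: labelled progenitors, orange: labelled cardiomyocytes) and a line through the day means with bars of ± 1 SD (n = 3). Mbnl1/Celf1 and Celf2/Celf1 climb at each harvest, Mbnl2/Mbnl1 stays between 0.99 and 1.94, and Ptbp2/Ptbp1 peaks at D6 and D7 (-1.46 and -1.45) and is lowest at D15 (-2.39); the vertical axes differ.

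RBFOX2 binds the motif GCATG beside muscle and heart exons. Rbfox2 (chr15:77078990-77307004, minus strand) measured 273.7, 279.8 and 297.9 CPM at D5, 374.0, 364.8 and 386.1 at D8, 497.2, 500.7 and 480.8 at D10 and 594.5, 525.1 and 517.8 at D15, with no overlap among these 4 days. The rise from D5 to D15 was 0.94 on the log2 scale (SE 0.062, edgeR adjusted p = 3.07e-14). It was called at 4 of 5 steps, the largest from D8 to D10 (0.40, adjusted p = 1.06e-05), where 17.3% of all genes were called higher. The last step of 0.15 (adjusted p = 0.0461) was not called with upper quartile factors, with no filter, with the compared days alone, or when any of 14 single libraries was left out. Its paralog Rbfox1, the muscle and brain member of the family, was almost without counts at D5 (11 counts in 3 libraries, 0.51 ± 0.20 CPM, SD) and reached 17.0 ± 5.9 CPM at D10 and 12.2 ± 2.0 at D15, a log2 change of 4.56 from D5 (adjusted p = 4.50e-12).

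The polypyrimidine tract binding proteins fell, by different courses. PTBP1 represses exons of muscle and neurons in most dividing cells, and PTBP2 is its neuronal paralog. PTBP1 also represses 1 exon of the Ptbp2 transcript, and skipping of that exon shifts the reading frame and sends the transcript to decay; an exon of the same length in Ptbp1 serves PTBP1's control of its own level. Both exons are 34 bases long, which leaves 1 base beyond whole codons. They are shown because PTBP1 is known to act through them on its own transcript and on that of Ptbp2. In the lines that follow, read 5′ to 3′ from GENCODE M21 transcripts on mm10, capitals mark the 8 positions at which they differ, while 26 are identical.
Ptbp1 exon 10, chr10:79862014-79862047, plus strand: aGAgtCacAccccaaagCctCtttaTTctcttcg
Ptbp2 exon 10, chr3:119724612-119724645, minus strand: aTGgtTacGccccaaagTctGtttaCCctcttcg
In the annotation, 3 of 6 coding Ptbp1 transcripts and 3 of 5 coding Ptbp2 transcripts contain the exon. Counts per gene cannot show how often it was used.

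Ptbp1 (chr10:79854427-79864771, plus strand) measured 592.0, 603.4 and 586.4 CPM at D5, 460.1, 462.7 and 475.6 at D7, 383.0, 400.4 and 417.0 at D10 and 271.6, 321.7 and 354.3 at D15. These 4 days did not overlap, and Ptbp1 fell by 0.91 on the log2 scale from D5 to D15 (SE 0.067, edgeR adjusted p = 4.67e-13). The called steps were D6 to D7 (-0.27, adjusted p = 0.00212) and D10 to D15 (-0.34, adjusted p = 0.000112), where 15.3% and 24.4% of all genes were called lower. Of the exon bases of Ptbp1, 20.7% are shared with genes on the opposite strand, and since the use of strand in counting is not given in the sources used here, reads of those genes cannot be told apart from its own there. One of them, E130317F20Rik, had 59 to 296 counts per day summed over 3 libraries. Ptbp2 (chr3:119718742-119784466, minus strand) first rose, from 152.1, 149.3 and 144.8 CPM at D5 to 223.3, 217.0 and 178.8 at D6, and then fell to 105.6, 107.2 and 98.25 at D10 and 57.01, 62.74 and 60.17 at D15. The D6 libraries were all above the D5 libraries and the D15 libraries below all others. The rise was 0.47 (SE 0.076, adjusted p = 1.44e-05), and each of the 4 later steps was called lower, the last by 0.79 (adjusted p = 7.38e-09). From D5 to D15 Ptbp2 fell by 1.31 (SE 0.084, adjusted p = 1.54e-14).

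The ratio of Ptbp2 to Ptbp1 within a library was highest at D6 and D7, with log2 means of -1.46 ± 0.15 and -1.45 ± 0.12 (SD, n = 3), against -2.00 ± 0.03 at D5 and -2.39 ± 0.16 at D15. Ptbp2 thus fell more than Ptbp1 from D5 to D15, with all D15 ratios below all D5 ratios (-0.39, exact two-sided permutation p = 0.1, the smallest possible). The summed neural markers, mostly Nes, which progenitors of other tissues also express, followed another course than Ptbp2. They were 252.9 to 279.1 CPM at D5, 65.61 to 81.64 at D6, 39.53 to 62.49 at D7 and 125.9 to 140.8 at D15. Single genes differed: Pax6 was highest at D6, as Ptbp2 was (1.47 CPM at D5, 3.39 at D6 and 0.05 at D15 on average). Of the 5 tested, 0 were called higher from D5 to D6 and 2 lower, beside 18.2% and 16.4% of all genes. All 5 that were tested were lower at D15 than at D5, where 37.7% of all genes were called lower. Sox1 and Neurod1 of that list had no count in 17 and 14 of the 18 libraries. The part of such cells in the Ptbp2 level was not tested.

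QKI, which promotes muscle exons in myogenic cells and in heart, and also the formation of circular RNAs, moved least. Qk (chr17:10202601-10319854, minus strand) measured 477.4, 449.4 and 446.0 CPM at D5, 419.6, 444.9 and 386.3 at D8 and 417.8, 410.1 and 367.1 at D15. The D15 libraries lay below the D5 libraries, by 0.20 on the log2 scale (SE 0.068, edgeR adjusted p = 0.00917), and no single step was called. Without the D15 library numbered MR36, the lowest in Qk, the change was -0.145 (adjusted p = 0.0716), and across days the adjusted p of 0.0172 became 0.0521 with RLE size factors.

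**Figure D4:**
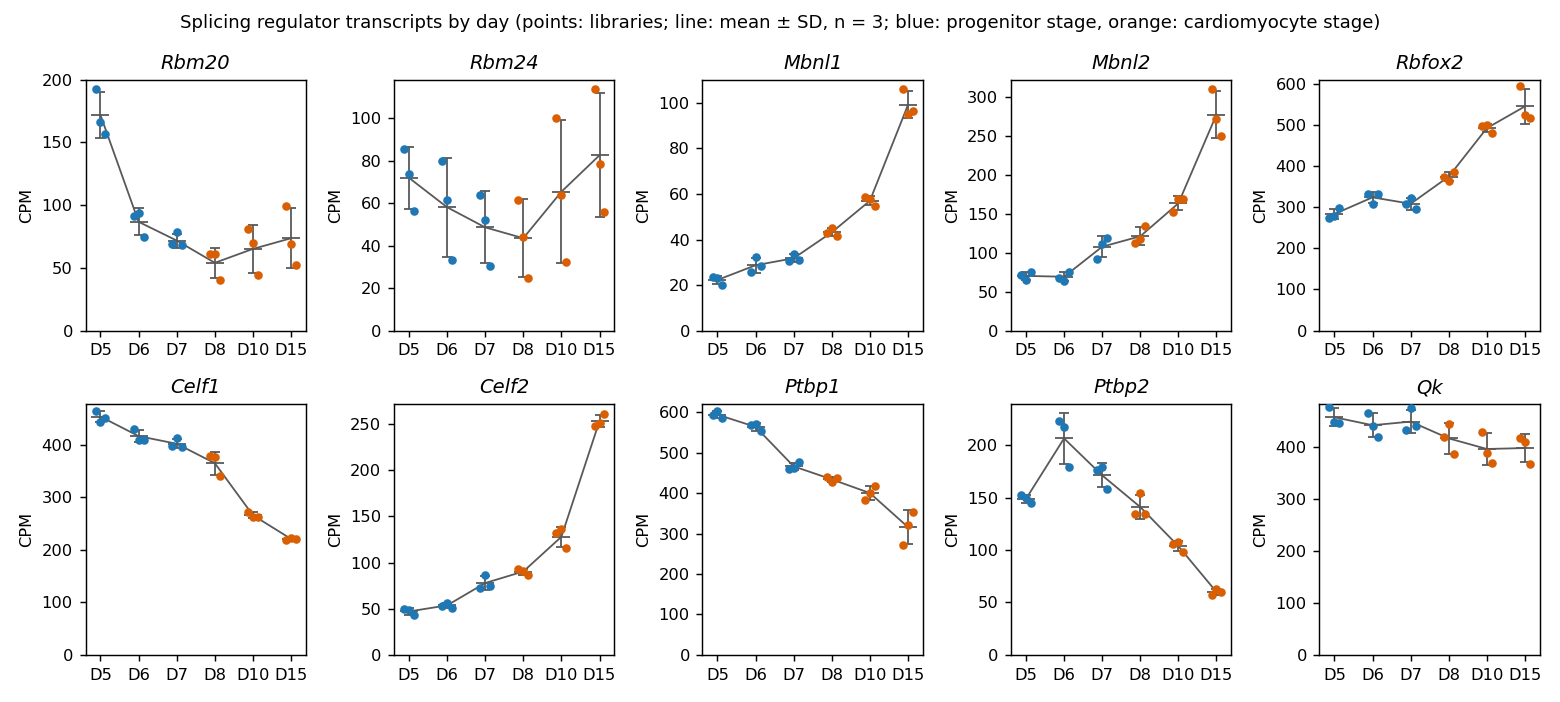
Level of each of the 10 genes in CPM in every library, by day, with one panel per gene (blue: libraries labelled progenitors, orange: libraries labelled cardiomyocytes; the line joins day means, bars are ± 1 SD, n = 3). Mbnl1, Mbnl2, Celf2 and Rbfox2 climb to D15, Celf1 and Ptbp1 descend, Ptbp2 peaks at D6, Rbm20 drops after D5, and Rbm24 spreads widely within each day.

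Each step between neighbouring harvests held called changes among the 10 genes. From D5 to D6, 3 of the 10 genes rose (Rbfox2, Mbnl1 and Ptbp2) and Rbm20 fell, beside 18.2% and 16.4% of all genes called (34.6% in all). From D6 to D7, Mbnl2 and Celf2 rose and Ptbp1 and Ptbp2 fell, beside 15.1% and 15.3% (30.4%). From D7 to D8, the change of labelled stage, Rbfox2, Mbnl1 and Celf2 rose and Ptbp2 fell, beside 12.6% and 11.6% (24.2%). From D8 to D10, Rbfox2, Mbnl1, Mbnl2 and Celf2 rose and Celf1 and Ptbp2 fell, beside 17.3% and 13.9% (31.2%). From D10 to D15, the same 4 genes rose and Celf1, Ptbp1 and Ptbp2 fell, beside 26.4% and 24.4% (50.8%). Neighbouring steps share the libraries of the day between them, and the steps differ in length, the last being the longest. Of the called steps, Celf2 from D7 to D8 (0.22, adjusted p = 0.0478) was not called without 13 of the 18 single libraries.

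**Figure D5:**
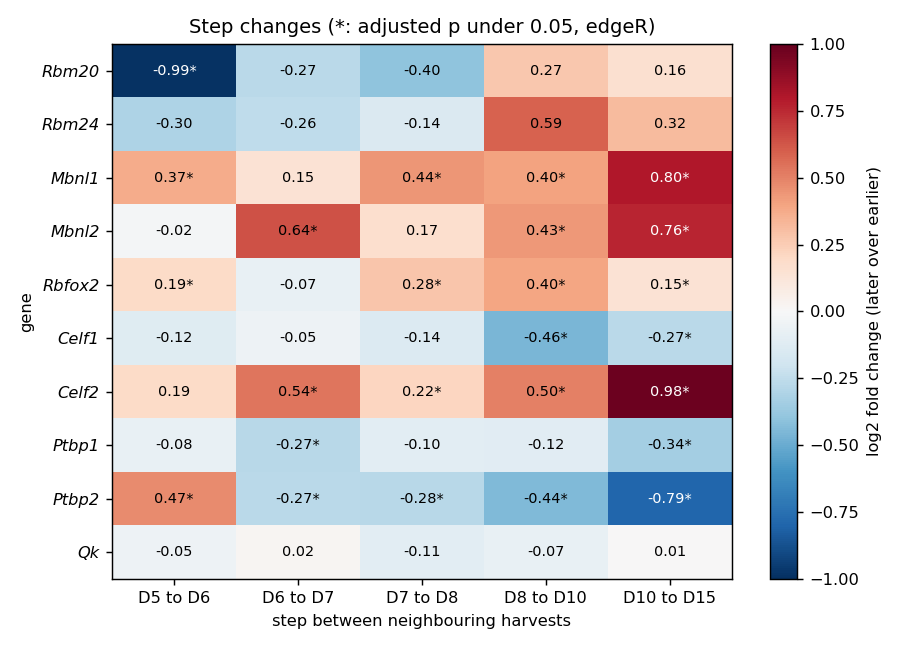
Log2 fold change of each gene (rows) at each step between neighbouring harvests (columns), later over earlier, on a colour scale from -1 (blue) to 1 (red); asterisks mark an edgeR adjusted p under 0.05. Calls fall in every column, and the deepest colours are Rbm20 from D5 to D6 (-0.99) and Celf2 from D10 to D15 (0.98).

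Levels can be compared between genes only per length, here as reads per kilobase of all annotated exons, scaled by depth (RPKM). At D5 Ptbp1 was highest at 125.3 ± 1.8 RPKM (SD, n = 3), followed by Celf1 at 53.7 ± 1.3, Rbfox2 at 34.9 ± 1.5 and Qk at 32.1 ± 1.2, with Mbnl1 last at 1.19 ± 0.10. At D15 Rbfox2 (67.1 ± 5.2 RPKM) and Ptbp1 (66.6 ± 8.8) did not differ beyond their spread. They were followed by a run from Qk (28.0 ± 1.9) through Celf1 (26.1 ± 0.3) and Rbm24 (23.7 ± 8.4) to Mbnl2 (23.1 ± 2.5) whose library ranges overlapped between neighbours. Rbm20 (10.8 ± 3.5), Celf2 (9.79 ± 0.26), Ptbp2 (6.54 ± 0.31) and Mbnl1 (5.30 ± 0.31) were lowest. Of the summed RPKM of the 10 genes, Celf1 held 16.9% at D5 and 9.79% at D15 and Rbfox2 11.0% and 25.1%, while Mbnl2 went from 1.85% to 8.66% and Celf2 from 0.573% to 3.66%. All annotated exons of Mbnl1 and Celf2 together (18717 and 25884 bases) are far longer than their longest transcripts (5655 and 8856 bases). The same holds for Mbnl2 (11993 against 5561 bases) and Ptbp2 (9175 against 4047 bases). The levels of these genes on this scale are thus low estimates. By longest transcript the order at D15 was another one. Ptbp1 ranked 1 (99.7 ± 13.1 RPKM) and Rbfox2 ranked 2 (79.0 ± 6.1), with library ranges that still overlapped. Mbnl2 ranked 3, Celf2 ranked 5, Mbnl1 ranked 8 and Ptbp2 ranked 10 of the 10.

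Beside these 10 genes, the general splicing machinery was lower at D15 than at D5, on lists of genes taken by function. These lists were chosen with earlier results of these data known. All 19 hnRNP genes tested fell (median log2 fold change -0.768), as did 10 of 12 SR protein genes (median -0.76) and 31 of 32 genes of the core spliceosome (median -0.794), where 37.7% of all genes were called lower. Among SR proteins, which bind exons and promote their use, Srsf7 fell by 1.31 (edgeR adjusted p = 3.14e-17), Srsf1 by 1.08 (adjusted p = 8.48e-15) and Tra2a by 0.76 (adjusted p = 6.71e-11), while Srsf5 (0.09) and Srsf9 (0.05) were not called. Of the hnRNP genes, Hnrnpll fell by 1.00, Hnrnpm by 1.04 and Hnrnpab by 1.08. Of the exon bases of Hnrnpm, 14.7% are shared with March2, and Hnrnpab is uncertain because 76.2% of its 50-base stretches are unique among transcripts. In the core spliceosome Sf3b3 fell by 1.21, Snrnp200 by 0.94 and Sf3a3 by 1.25, and Sf3b1, the branch point factor, was alone in rising (0.17, adjusted p = 0.00538). Many of these genes fell from D6 to D7, with 11 of 12 SR, 13 of 19 hnRNP and 18 of 32 core genes called lower, beside 15.3% of all genes. From D10 to D15 these counts were 6, 14 and 18, beside 24.4% of all genes. Cell cycle markers moved with them: 10 of 10 were lower at D15 (median -1.39), and their part in these falls was not tested.

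Other regulators were mixed. Of 8 tested paralogs of the 10 genes, 3 rose and 3 fell, where 40.3% of all genes were called higher and 37.7% lower. Beside Rbfox1, Mbnl3 rose by 1.02 (edgeR adjusted p = 0.000237) and Celf3, at no more than 4.64 CPM in any library, by 3.04 (adjusted p = 4.46e-06), while Celf5 fell by 3.48 from 6.34 ± 1.16 CPM at D5 (SD, n = 3, adjusted p = 2.16e-07), Rbm38 by 1.03 (adjusted p = 0.00159) and Matr3 by 0.13 (adjusted p = 0.0434). Of 17 tested genes on a list of other tissue-restricted splicing regulators, some of them known in muscle or broadly expressed, 1 rose and 9 fell (median -0.459), beside the same shares of all genes. Khdrbs1, Rbpms2 and Fxr1 fell by 0.70, 1.15 and 0.61, and Nova2, a neuronal regulator with 69.2% unique stretches and so uncertain, was the one called higher (1.14, adjusted p = 0.0255). With RLE factors the last list counted 3 higher and 9 lower, and the paralogs 3 and 2.

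Among 25 transcripts known as splicing targets of these regulators in muscle, 19 rose and 4 fell from D5 to D15, beside 40.3% and 37.7% of all genes. This list, like the others, was chosen with earlier results of these data known. Cardiomyocyte markers (9 of 10 higher, median 4.64) and fibroblast and matrix markers (10 of 10 higher) rose with them, and their part in this count was not tested. Of the 25, Tnnt2, Ryr2 and Myom1 are also on the cardiomyocyte list, and Fn1 encodes a matrix protein. The transcription factors Mef2a and Mef2d, whose muscle exons are alternatively spliced, rose by 2.25 (edgeR adjusted p = 2.13e-13) and 1.20 (adjusted p = 2.26e-11), and the Z disc gene Pdlim5 by 0.89 (adjusted p = 3.19e-09). Enah, Actn1 and Bin1, which encode actin regulators, an actin crosslinker and a membrane-bending protein, fell by 1.48, 1.16 and 1.09 (adjusted p = 1.09e-17, 4.53e-15 and 4.54e-11). Titin, chosen after its values were seen, rose by 5.69 (SE 0.701, adjusted p = 5.96e-06). These are totals per gene, and no isoform was measured.

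For the 6 genes with a range of day means of at least 1 on the log2 scale, the 3 genes closest to each by Pearson correlation of log2 CPM over the 18 libraries were taken from 2970 candidates. The libraries share days, so a high r says mostly that the course over days is alike in shape, whatever its size. Mbnl1 and Celf2 were on each other's list (r = 0.986), Mbnl1 with Ctsa (0.988) and Tmem59 (0.987), Celf2 with Trak1 (0.989) and Slc25a12 (0.986). The genes closest to Mbnl2 included Cav1 (0.987) and Irf2bp2 (0.981). Cav1 rose from 1.35 CPM at D5 to 558.4 at D15 on average, a far larger change than that of Mbnl2 (70.15 to 277.2 CPM). The genes closest to Celf1 included Trim71 (0.987) and Lin28a (0.986), regulators known from the let-7 pathway of developmental timing. From D5 to D15 these 2 fell almost to no counts, Trim71 from 124.7 to 0.29 CPM and Lin28a from 1021 to 0.28 CPM on average. Celf1 fell far less, from 453.4 to 220.7 CPM. Ptbp2 ran closest to Hoxb2 (0.987, with 74.1% unique 50-base stretches and so uncertain), Rcbtb2 (0.978) and Ube2e3 (0.977). Rbm20 had the loosest set, with Alpk3 (0.953), Tmem2 (0.931) and Cdc14b (0.914), and Alpk3, a kinase gene of heart muscle, likewise was highest at D5 (91.2 ± 5.4 CPM, SD, n = 3).

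The promoters of Mbnl2, which rose, and Ptbp2, the steepest faller, each with 1 annotated window, are shown because their base composition differs. The windows run from 250 bases before to 50 after the start site in RefSeq (build GRCm38.p6), and capitals mark each CG.
Mbnl2, chr14:120275419-120275718, plus strand: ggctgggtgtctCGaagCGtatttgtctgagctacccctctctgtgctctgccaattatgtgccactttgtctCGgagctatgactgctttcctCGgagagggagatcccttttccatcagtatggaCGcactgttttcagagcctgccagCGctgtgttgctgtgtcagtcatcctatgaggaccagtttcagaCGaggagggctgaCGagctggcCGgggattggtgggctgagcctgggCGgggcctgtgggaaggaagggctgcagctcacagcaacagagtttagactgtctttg
Ptbp2, chr3:119783339-119783638, minus strand: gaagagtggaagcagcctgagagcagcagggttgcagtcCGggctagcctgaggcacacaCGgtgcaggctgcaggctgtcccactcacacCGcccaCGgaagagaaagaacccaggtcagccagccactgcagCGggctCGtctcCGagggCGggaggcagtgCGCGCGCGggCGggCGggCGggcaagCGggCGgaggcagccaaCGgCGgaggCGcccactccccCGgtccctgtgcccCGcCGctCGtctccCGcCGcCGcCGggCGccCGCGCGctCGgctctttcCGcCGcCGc
The Mbnl2 window holds 10 CG and is 56.3% G and C, and the Ptbp2 window holds 36 CG and is 74.7% G and C, where the median of 32851 promoter windows of this length is 7 CG. Windows were found for 8 of the 10 genes. Both strands were searched for the E-box CAGCTG, the GATA motif AGATAA, the T-box motif AGGTGTGA, the TATA box TATAAA and the CCAAT box, which 16.3%, 11.2%, 1.28%, 13.6% and 37.4% of all windows hold. Mbnl2 had CCAAT at 199 and 28 bases before the start, and Ptbp1 had CCAAT 62 bases before and CAGCTG 39 bases after it. Of 2 Mbnl1 windows, 1 had CCAAT 2 times and 1 TATAAA site. That site was read on both strands, as overlapping matches 122 and 120 bases before the start. Of 5 Celf2 windows, 1 had AGATAA and TATAAA 1 time each. None of the 5 motifs was found in the Ptbp2, Celf1, Qk and Rbm24 windows. A match is a description of letters, and no binding or methylation was measured here.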

How the data were processed

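The authors deposited raw read counts per gene, which were taken as they are. Per the labels' protocols, RNA from 5x10E5 cells per sample was prepared with a TruSeq RNA v2 kit and sequenced as single-end 50 base reads on a HiSeq4000; per the submitters' processing notes, STAR and mm10 were used. The counting tool, annotation and use of strand are not given in the sources used here. Libraries were assigned to days by column name, and 3 columns matching no sample were not used. The members and lists were chosen with earlier results of these data known.

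edgeR 4.0.16 (R 4.3.3; filterByExpr with a minimum count of 10, TMM factors, a mean per day, robust quasi-likelihood F tests with 12 residual degrees of freedom) was fitted to all 18 libraries. P-values were Benjamini-Hochberg adjusted over 13116 genes and called under 0.05. The biological coefficient of variation was 8.27%, and library totals of 5257601 to 7122093 set the precision. The copy check on pairs of libraries of a day gave a chi-square over degrees of freedom of 2.206 to 9.232, so no pair was counted as 1 sample. CPM used TMM library sizes.

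All 10 genes were named in every comparison; from each splicing list, up to 3 called genes per direction with the smallest p for D15 against D5; and the 3 closest by correlation among genes called across days that had a log2 CPM averaging 4 or more and a day range of 1 or more. Some of these closest genes are not reported here. Coordinates, exon lengths and overlaps are from GENCODE M21 and promoters from RefSeq GRCm38.p6. Ptbp3 and Hnrnpll were found under their older symbols Rod1 and Hnrpll. Alternatives were DESeq2 1.42.0, limma-voom (limma 3.58.1), upper quartile or RLE factors, no filter, 1 CPM in 9 libraries, the compared days alone, each library left out, and length by longest transcript. The fits were tested on simulated data.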

Additional observations from a re-analysis of the deposited data

How the results depend on the processing

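Among 1980 values of the 10 genes under alternative settings, 1912 kept their direction and side of the threshold, 42 lost a call, 4 gained one and 22 changed sign; each of the 22 was a value not called in the first place. The 9 calls of D15 against D5 held under every setting but 1, the Qk change without the D15 library MR36. Genes called lower from D5 to D6 numbered 2 in place of 1 with DESeq2 and with the compared days alone, where Celf1 was added (adjusted p 0.0412 and 0.0329), and 2 from D7 to D8 with limma-voom (Celf1, 0.0447). With single libraries left out, genes called lower ranged from 1 to 2 for D6 to D7 and from 0 to 1 for D7 to D8. The change of Qk from D10 to D15 was -0.058 with upper quartile factors, -0.001 with no filter and -0.015 with the compared days alone. With single libraries left out it ranged from -0.042 to 0.066, Qk from D6 to D7 from -0.018 to 0.062, Mbnl2 from D5 to D6 from -0.088 to 0.032, and Rbm20 from D10 to D15 from -0.117 to 0.361. Rbm24 ranged from -0.103 to 0.418 for D15 against D5, from -0.534 to 0.039 for D6 to D7, from -0.485 to 0.122 for D7 to D8 and from -0.071 to 0.182 between stages. No paired analysis was possible because the columns of the count table carry no replicate number. By longest transcript, RPKM at D5 and D15 were 35.13 and 15.05 for Rbm20, 41.09 and 79.02 for Rbfox2, 3.93 and 17.53 for Mbnl1, 12.61 and 49.85 for Mbnl2, 57.76 and 28.12 for Celf1, 5.31 and 28.6 for Celf2, 187.4 and 99.67 for Ptbp1, 36.75 and 14.82 for Ptbp2, and 53.54 and 46.6 for Qk. The shorter length is the cause of these shifts, by construction. The fit of the compared days alone equals the first fit for the stage comparison and was not run there. For the other alternatives the cause was not tested.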
